A study of Mus musculus with 18 samples.

Results

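Cdh1, Cdh2, Epcam and Vim were followed in embryoid bodies, the aggregates in which mouse embryonic stem cells differentiate, over 3 days of culture. These 4 genes are commonly used to mark epithelial and mesenchymal cells. The 4 genes were chosen with earlier results of these data known. Their probes were taken as every gene probe of the array whose description carried the symbol Cdh1, Cdh2, Epcam (listed under its older name Tacstd1) or Vim, whatever its values. That gave 4 of 6019 genes with a symbol and 6 of 15247 gene probes: clones H3076B06 and H3050H02 for Cdh1, H3131E08 and H3141H05 for Cdh2, H3082F06 for Epcam and H3119G01 for Vim. The array files note no PCR product for 3 of the 6 clones, H3050H02, H3141H05 and H3119G01, a remark that 8.78% of all gene probes carry.

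All 6 groups derive from i-Mixl1, a mouse embryonic stem cell line whose name refers to Mixl1, a homeobox gene of the primitive streak. Doxycycline (DOX) was given at 0.1 ug/ml from 1 day after the stem cells were plated, or was left out, and RNA was taken from the embryoid bodies at day 2, day 3 and day 4. The groups were therefore DOX and control at each of 3 days, with 3 biological replicates in each, 18 samples in all, hybridised in pairs of equal day and replicate number to 9 spotted cDNA arrays. The labels do not say how many independent clones of the line were used. No probe for Mixl1 was used here, so the labels were not checked against that gene.

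Cadherins are calcium-dependent adhesion proteins of the cell surface that bind the same cadherin on a neighbouring cell. Cdh1 encodes E-cadherin, which holds epithelial cells together and is also made by pluripotent stem cells. Cdh2 encodes N-cadherin, found in mesoderm, neural and mesenchymal cells, and Epcam encodes an adhesion molecule of epithelial and embryonic stem cells. Vim encodes vimentin, the intermediate filament protein of mesenchymal cells. During gastrulation, cells that leave the epiblast through the primitive streak lose E-cadherin and gain N-cadherin and vimentin, a passage known as an epithelial-mesenchymal transition. Transcription factors of the Snai and Zeb families repress epithelial genes in it by binding E-box sequences.

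Which channel held which sample was not settled here. The deposited value table assigns the red channel to DOX and the green channel to the control, whereas the labels give Cy3, read in the green, to DOX and Cy5, read in the red, to the control. All 9 arrays run the same way, so each ratio is given below as red over green with no treatment attached, and by the value table a higher value in red would be higher with DOX. Within a day, dye and treatment cannot be told apart, and a dye effect that is constant over days drops out of differences between days and of time courses within 1 channel.

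Median intensities of the channels were 209 to 491, and a signal-to-noise ratio of 1.4, the limit used here for a spot above background, was reached by 54.3 to 70.1% of gene probes. Ratios of gene probes correlated at 0.51 to 0.73 between arrays of the same day. Of 8 markers of pluripotent cells, Pou5f1, Zfp42 and Dppa5a were measured, and their summed level (on the linear scale of the normalized intensity) was 23605 to 25114 in red and 24316 to 24883 in green at day 2, and 2575 to 4813 in red and 5026 to 7194 in green at day 4. The sum hides members that went both ways between the channels: at day 4 Pou5f1 was at -1.90 log2, red over green, and Dppa5a at 0.74 and Zfp42 at 0.49, with Zfp42 not well above background in green. Of 8 mesoderm markers 5 were measured, and their summed level in red was 827 to 1434, 3793 to 4924 and 4290 to 6480 at days 2, 3 and 4. In green it was 631 to 868, 1940 to 3300 and 6581 to 9466 on the same days. These sums include background: at day 2 only 1 of the 5 was well above it in red and 2 in green, and T was so in no group. They also hide members that went both ways between the channels: at day 4 Hand1 was called higher in red, and Mesp2, Eomes and Pdgfra lower. Of 9 fibroblast markers, which feeder cells would carry, 4 were measured, with a summed level of 362 to 755 over all samples. That sum too includes background: Fbln2 was well above it in no group, Dcn only in green at day 2, and Lum not in red at day 3. Its members also went both ways: Col1a2 was called higher in red at day 2, Lum lower at day 3 and Dcn lower at day 4. Whether changing shares of any of these cell types set the values below was not tested. In RNA from whole embryoid bodies, fewer cells of a type and less RNA per cell cannot be told apart.

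The annotation places Cdh1 at chr8:106603350-106670247, Epcam at chr17:87635979-87651127 and Vim at chr2:13574311-13582826 (RefSeq gene extents, GRCm38.p6). Promoter sequences from 250 bases before to 50 bases after the start, from RefSeq on that build, are shown for Epcam and Vim. At day 3 the red over green ratios of these 2 genes had opposite signs, Epcam lower and Vim higher in red. No promoter entry was available for Cdh1, and the Cdh2 promoter is not reported here, so the 2 windows are a chosen pair. Capitals mark each E-box read as CAGGTG or its reverse complement CACCTG, searched on both strands, letters that 20.2% of 32851 mouse promoters of equal length hold.
Epcam promoter, chr17:87635729-87636028, plus strand: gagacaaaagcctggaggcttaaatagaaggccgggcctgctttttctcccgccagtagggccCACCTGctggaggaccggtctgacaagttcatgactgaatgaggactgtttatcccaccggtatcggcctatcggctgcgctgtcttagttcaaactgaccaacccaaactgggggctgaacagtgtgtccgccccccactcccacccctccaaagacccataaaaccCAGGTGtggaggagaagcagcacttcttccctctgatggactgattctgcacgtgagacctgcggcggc
Vim promoter, chr2:13574061-13574360, plus strand: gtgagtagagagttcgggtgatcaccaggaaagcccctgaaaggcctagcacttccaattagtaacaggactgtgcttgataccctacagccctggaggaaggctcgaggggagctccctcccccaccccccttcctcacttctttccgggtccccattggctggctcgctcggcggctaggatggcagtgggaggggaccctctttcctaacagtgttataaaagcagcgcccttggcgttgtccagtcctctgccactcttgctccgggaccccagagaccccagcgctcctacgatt
The Epcam window held 2 matches, at -187 and -19 from the start, and the Vim window held 0. A match describes the letters and is not a measured binding site, and no binding was measured in these samples.

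Signal decided how much each probe could show. Epcam was above the limit of 1.4 in all 18 samples, with a signal-to-noise ratio of 16.1 to 97.3. Vim was also above it in all 18, with its lowest value, 1.404, in the green channel of day 2 replicate 1. The brighter Cdh2 probe, H3131E08, was above it in 16 samples and below it in both channels of day 2 replicate 3, at 0.53 in red and 0.51 in green. The second Cdh2 probe, H3141H05, reached the limit in 3 samples, all of day 4. Neither Cdh1 probe reached the limit in any sample, and the highest signal-to-noise ratio of either was 0.46.

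**Figure D1:**
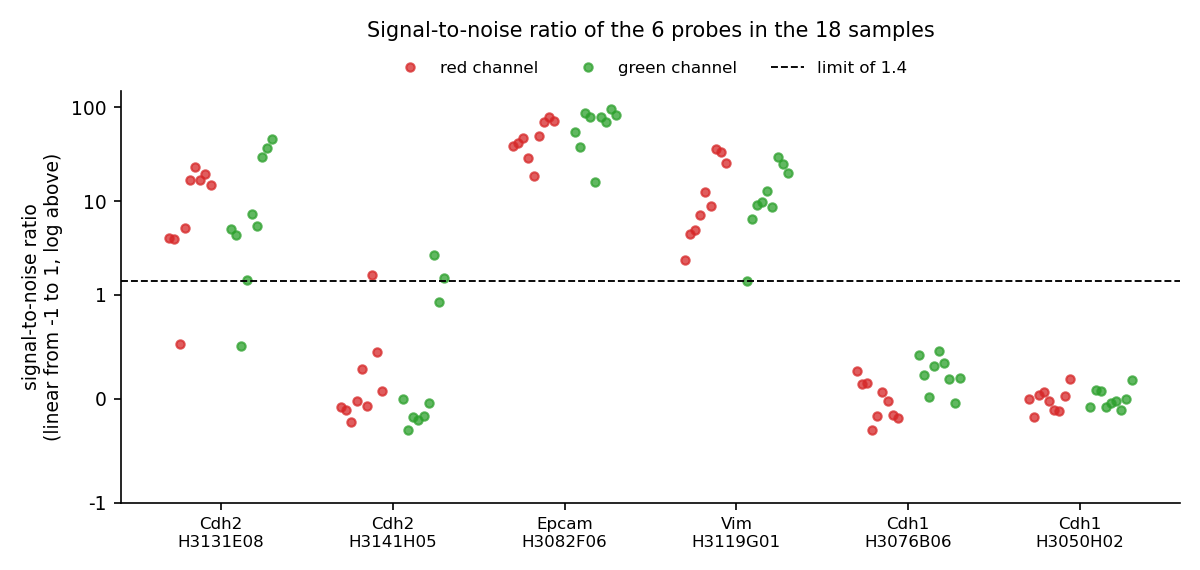
Signal-to-noise ratio of each probe in the 9 red and 9 green channels, ordered from left to right within a colour by day and replicate; the dashed line is the limit of 1.4. Epcam lies at 16.1 or above throughout, and both Cdh1 probes lie at or below 0.46.

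Of the 4 genes Cdh2, which the annotation places at chr18:16588877-16809246 (GRCm38.p6), differed most between the channels, and the direction turned between days. Its brighter probe did not pass at day 2, was 4.25-fold higher in red at day 3, and was 1.39-fold lower in red at day 4. On the 3 arrays of day 2 the log2 ratio of red over green was 0.33, 0.24 and 0.13. At day 3 it was 1.79, 2.26 and 2.21. At day 4 it was -0.61, -0.61 and -0.22. All 3 arrays of day 3 lay above every array of the other days, and all 3 of day 4 lay below every array of the other days. The mean log2 ratio was 0.23 ± 0.10 (SE, n = 3) at day 2 (limma, adjusted p = 0.263), 2.09 ± 0.10 at day 3 (limma, adjusted p = 4.57e-09) and -0.48 ± 0.10 at day 4 (limma, adjusted p = 0.00476). Among all 15247 probes the day 3 value ranked 9 from the highest. The day 4 call was lost without replicate 2 of that day's pair, where the log2 ratio was -0.41 (limma, adjusted p = 0.0880). Here and below, adjusted p is Benjamini-Hochberg over all gene probes with a threshold of 0.05, and n is the number of arrays or samples. SE and p rest on the spread between biological replicates pooled over the 3 days and moderated by limma over all probes. They do not measure the spread of the 3 replicates of 1 day alone.

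**Figure D2:**
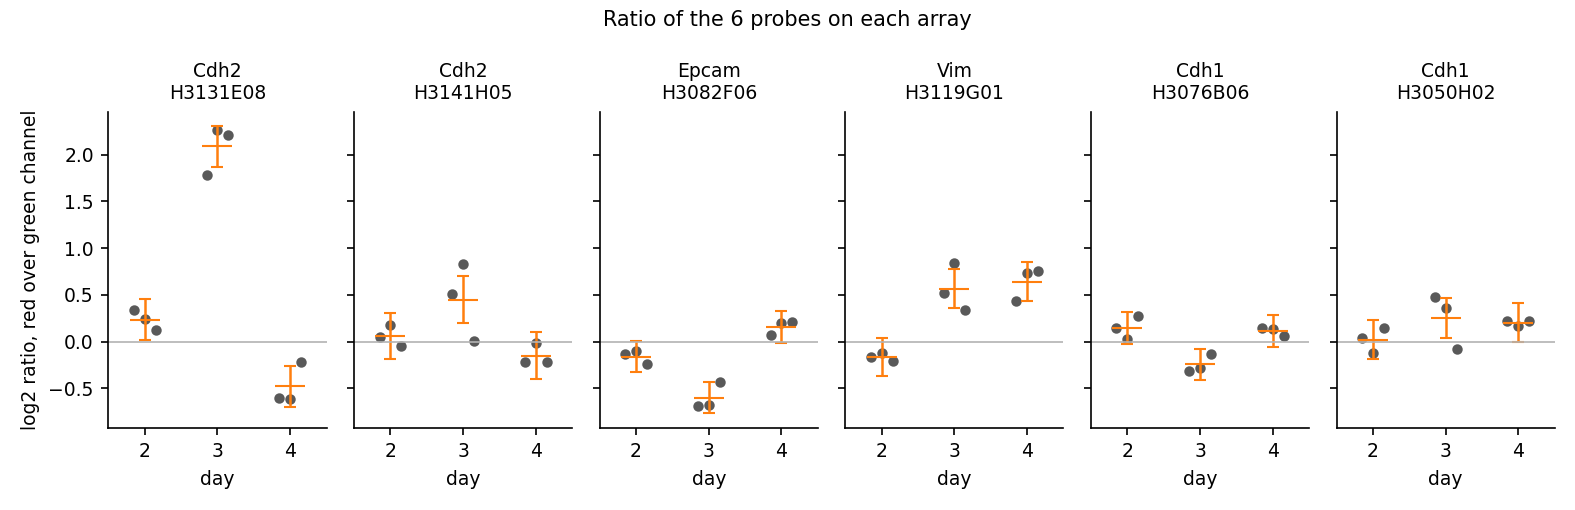
Log2 ratio of the red over the green channel on each array (grey points) at days 2, 3 and 4 for the 6 probes, with the mean and its 95% interval from limma (orange). Cdh2 clone H3131E08 stands at 1.79 to 2.26 at day 3 and below 0 at day 4, and Epcam lies below 0 at day 3 where Vim lies above it.

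The differences between days, which a constant dye effect leaves unchanged, were 1.85 ± 0.15 for day 3 minus day 2 (limma, adjusted p = 8.63e-06) and -2.57 ± 0.15 for day 4 minus day 3 (limma, adjusted p = 3.58e-08). The second of these ranked 5 from the lowest of 15243 probes. Day 4 minus day 2 was -0.71 ± 0.15 (limma, adjusted p = 0.00674), a call that was lost without replicate 1 (log2 -0.60, adjusted p = 0.0517) and without replicate 2 (log2 -0.64, adjusted p = 0.139).

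Levels within a channel showed that Cdh2 rose in both, a day earlier in red. In red the log2 level was 8.34, 8.69 and 7.92 in replicates 1 to 3 of day 2, 9.88, 10.61 and 10.95 on day 3, and 9.88, 10.52 and 10.52 on day 4. In green it was 8.003, 8.45 and 7.79 on day 2, 8.10, 8.34 and 8.74 on day 3, and 10.48, 11.13 and 10.74 on day 4. Every sample of red day 3, red day 4 and green day 4 was at 9.88 or above, and every other sample was at 8.74 or below. The rise in red from day 2 to day 3 was 2.16 ± 0.31 log2, 4.48-fold (limma, adjusted p = 0.00947). The rise in green from day 3 to day 4 was 2.39 ± 0.25 log2, 5.24-fold (limma, adjusted p = 0.00126). The green change from day 2 to day 3 was 0.31 ± 0.25 log2, with a 95% interval of -0.25 to 0.86 (limma, adjusted p = 0.916). From day 3 to day 4 the red change was -0.18 ± 0.31, with an interval of -0.87 to 0.52 (limma, adjusted p = 0.906). Over the whole course Cdh2 was 3.97-fold higher at day 4 than at day 2 in red (limma, adjusted p = 0.00412) and 6.49-fold higher in green (limma, adjusted p = 2.88e-04). Ordered by mean, the 6 groups ran green day 4, red day 3, red day 4, green day 3, red day 2 and green day 2, and the only neighbours in that order whose samples did not overlap were red day 4 and green day 3, 1.91 log2 apart. With 2 replicates a group the red rise from day 2 to day 3 was 2.29 without replicate 2 and 1.73 without replicate 3, and neither passed (limma, adjusted p = 0.114 and 0.240). Without replicate 3 the red rise from day 2 to day 4 was 1.68 (limma, adjusted p = 0.0890) and the green rise from day 3 to day 4 was 2.59 (limma, adjusted p = 0.0567).

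The other Cdh2 probe, H3141H05, was below the signal-to-noise limit in both channels of every array at days 2 and 3, so its ratios are not set against those of the brighter probe. Its log2 ratios at day 3 were 0.51, 0.83 and 0.01, with a mean of 0.45 ± 0.12 (limma, adjusted p = 0.0143). Day 4 minus day 3 was -0.60 ± 0.17 (limma, adjusted p = 0.0410). Its signal-to-noise ratio passed 1.4 in red on day 4 replicate 1, at 1.64, and in green on day 4 replicates 1 and 3, at 2.64 and 1.5, so no fold is given for it.

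The ratio of Epcam went the other way from that of Cdh2 at day 3. Epcam was 1.52-fold lower in the red channel at day 3 and did not pass at day 2 or day 4. On the day 2 arrays its log2 ratio was -0.14, -0.10 and -0.24, on the day 3 arrays -0.69, -0.67 and -0.44, and on the day 4 arrays 0.07, 0.19 and 0.21. The 3 days did not overlap, with day 3 lowest and day 4 highest. The mean log2 ratio was -0.16 ± 0.080 at day 2 (limma, adjusted p = 0.316), -0.60 ± 0.080 at day 3 (limma, adjusted p = 7.91e-05) and 0.16 ± 0.080 at day 4 (limma, adjusted p = 0.197). Day 4 minus day 3 was 0.76 ± 0.11 (limma, adjusted p = 3.95e-04). Day 3 minus day 2 was -0.44 ± 0.11 (limma, adjusted p = 0.0472), a call that was lost in 8 of 12 alternatives, among them each of the 3 in which a replicate was left out, where the log2 difference ran from -0.56 to -0.37.

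The levels of Epcam were high throughout, and the day 4 samples were the lowest in both channels. In red the log2 level was 12.13, 12.21 and 11.999 on day 2, 11.98, 12.23 and 11.96 on day 3, and 11.75, 11.76 and 11.74 on day 4. In green it was 12.27, 12.31 and 12.24 on day 2, 12.67, 12.90 and 12.40 on day 3, and 11.67, 11.56 and 11.54 on day 4. Green day 3 lay above all other groups and green day 4 below all others, while red changed less. From day 3 to day 4 the green channel fell by 1.07 ± 0.15 log2, 2.09-fold (limma, adjusted p = 0.00620), and by day 4 it was 0.68 ± 0.15 log2 below day 2 (limma, adjusted p = 0.0286). The red channel changed by -0.31 ± 0.15 from day 3 to day 4 (95% interval -0.63 to 0.02, limma, adjusted p = 0.465) and by -0.37 ± 0.15 from day 2 to day 4 (interval -0.69 to -0.04, limma, adjusted p = 0.210). With 1 replicate left out, the green fall from day 3 to day 4 ran from 0.93 to 1.17 and the fall from day 2 from 0.65 to 0.73, and none of these passed (limma, adjusted p = 0.0886 to 0.149 and 0.140 to 0.216). The fall from day 2 lost its call in 7 of 9 alternatives in all. Neighbouring groups in the order of Epcam levels did not overlap except red day 2 and red day 3.

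Vim, like Cdh2, was higher in the red channel at day 3, and unlike Cdh2 it stayed higher at day 4. Its log2 ratio was -0.16, -0.12 and -0.20 on the day 2 arrays, 0.52, 0.84 and 0.34 on the day 3 arrays, and 0.44, 0.73 and 0.76 on the day 4 arrays. Every array of days 3 and 4 was above 0 and every array of day 2 was below it. The mean log2 ratio was -0.16 ± 0.097 at day 2 (limma, adjusted p = 0.405), 0.57 ± 0.097 or 1.48-fold at day 3 (limma, adjusted p = 7.30e-04) and 0.64 ± 0.097 or 1.56-fold at day 4 (limma, adjusted p = 2.38e-04). Day 3 minus day 2 was 0.73 ± 0.14 (limma, adjusted p = 0.00770) and day 4 minus day 2 was 0.80 ± 0.14 (limma, adjusted p = 0.00154). Day 4 minus day 3 was 0.08 ± 0.14, with a 95% interval of -0.22 to 0.37 (limma, adjusted p = 0.847). The day 3 minus day 2 call was lost without replicate 1 (log2 0.76, adjusted p = 0.0549) and without replicate 2 (log2 0.61, adjusted p = 0.159). The only Vim probe, H3119G01, is from a clone noted with no PCR product, and whether its spot holds Vim cDNA could not be checked.

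Vim levels were higher at each later day in the mean of both channels, with a wide spread between replicates. In red the log2 level was 7.77, 8.30 and 8.88 on day 2, 9.58, 9.74 and 9.35 on day 3, and 10.89, 10.27 and 9.88 on day 4. In green it was 7.94, 8.42 and 9.09 on day 2, 9.07, 8.90 and 9.004 on day 3, and 10.45, 9.54 and 9.12 on day 4. The 3 days of the red channel did not overlap, while in green day 2 overlapped day 3. From day 2 to day 4 red rose by 2.03 ± 0.31 log2, 4.08-fold (limma, adjusted p = 0.00393). Without replicate 2 this was 2.06 and did not pass (limma, adjusted p = 0.0619). The green change over the same days was 1.22 ± 0.36, with a 95% interval of 0.41 to 2.04, and did not pass after adjustment (limma, adjusted p = 0.0907). It was 0.58 without replicate 1 and 1.82 without replicate 3. Steps of a single day did not pass in either channel, the largest being 1.24 ± 0.31 in red from day 2 to day 3 (limma, adjusted p = 0.141). Red day 3 and green day 3 were the only neighbours in the order of Vim levels that did not overlap.

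**Figure D3:**
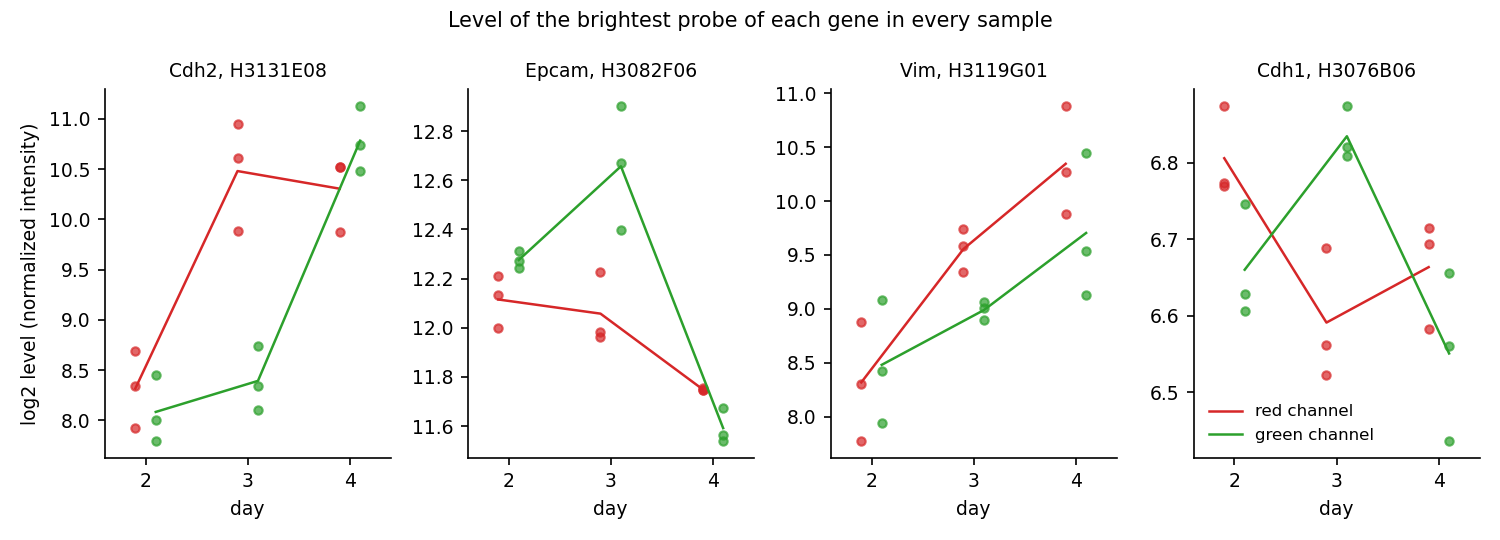
Normalized log2 level of the brightest probe of each gene in every sample, red and green channels apart, with lines through the means of 3 replicates and a separate vertical scale for each gene. Cdh2 rises in red by day 3 and in green by day 4, Epcam is lowest at day 4, Vim is higher at each later day, and Cdh1 stays at 6.87 or below.

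Cdh1 gave no measurable level. All its 36 channel values, from 2 probes in 18 samples, were below the signal-to-noise limit, with background-subtracted intensities of -31 to 22, and the scanner flag of both spots was -50 on all 9 arrays. The 2 probes also disagreed: at day 3 the log2 ratio was -0.31, -0.29 and -0.13 for H3076B06 and 0.48, 0.36 and -0.08 for H3050H02. The first mean, -0.24 ± 0.079, passed (limma, adjusted p = 0.0396) and the second, 0.25 ± 0.099, did not (limma, adjusted p = 0.0823). With both channels at background no fold is given. The mean of both probes was 0.0048 and the call of H3076B06 held in 1 of 11 alternatives. These spots say nothing about the level of E-cadherin RNA.

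Set against the whole array, the 6 probes were called as follows. Since the genes were chosen with earlier results of these data known, the counts describe these probes and do not test them. At day 2, 0 of 6 passed, where 3.30% of all probes did, 1.38% higher and 1.92% lower in red. At day 3, 5 of 6 passed, where 20.1% of all probes did. Of these, 3 were higher (Vim and both Cdh2 probes, 1 of these at background, against 9.15% of all probes) and 2 were lower (Epcam and 1 Cdh1 probe at background, against 11%, or 1677 probes). At day 4, 2 of 6 passed, where 17.4% of all did, with Vim higher (7.97% of all probes) and Cdh2 lower (9.45%). Between days, 3 of 6 passed for day 3 minus day 2 (3.21% of all probes), 3 of 6 for day 4 minus day 3 (6.58%) and 2 of 6 for day 4 minus day 2 (6.56%). Those for day 4 minus day 3 include the second Cdh2 probe, which was at background at day 3. In the time course of the red channel 1, 0 and 2 of 6 passed for day 3 minus day 2, day 4 minus day 3 and day 4 minus day 2, against 1.06%, 1.78% and 6.80% of all probes. In the green channel the counts were 0, 2 and 3 of 6, against 0.748%, 2.27% and 6.19%. The 3 for green day 4 minus day 2 include the second Cdh2 probe, which was at background at day 2. Comparisons that share a day also share its arrays, and the probes of a gene share their target.

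The median log2 ratio of the print block around each of the 6 spots lay between -0.06 and 0.09 at every day. In the authors' deposited table, which was scaled differently, the mean fold of red over green for Cdh2 was 1.27, 5.73 and 0.704 at days 2, 3 and 4, with calls of up at day 3 and down at day 4. The authors' deposited table gives Epcam 0.894, 0.666 and 1.13, called down at day 3, and Vim 0.863, 1.598 and 1.63, called up at days 3 and 4. The p-value in the authors' deposited table was 0.0220 for Cdh2, 0.0436 for Epcam and 0.0186 for Vim at day 3, and 0.270 for Cdh2 and 0.175 for Vim at day 4. Cdh1 and the second Cdh2 probe have no fold in the authors' deposited table.

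Other epithelial and junction genes went both ways at day 3, and most of those called at day 4 were higher in red. Of 43 listed genes besides the 4, 23 were measured, each by its brightest probe. At day 2, 2 were higher in red, the laminin chain gene Lamc1 (log2 0.44 ± 0.082, adjusted p = 0.00515, from a clone noted as questionable) and the keratin gene Krt8 (0.42 ± 0.11, adjusted p = 0.0466). Of all probes 1.38% were called higher that day. The 2 other Lamc1 probes were at -0.050 and 0.076 that day (adjusted p = 0.851 and 0.790), and 1 of them was lower at day 3 (-0.43 ± 0.12, adjusted p = 0.0209). At day 3, 4 were higher and 3 lower, and the list's median log2 ratio was 0.0030 beside 0.0040 over all probes, of which 9.15% were called higher and 11% lower. The 3 lower genes encode the tight junction proteins claudin 3 (Cldn3, -1.08 ± 0.11, adjusted p = 3.89e-06) and claudin 6 (Cldn6, -0.65 ± 0.088, adjusted p = 8.37e-05) and the protease inhibitor Spint1 (-0.38 ± 0.077, adjusted p = 0.00268). The 3 highest were the keratin genes Krt8 (0.93 ± 0.11, adjusted p = 1.86e-05) and Krt19 (0.90 ± 0.12, adjusted p = 5.35e-05) and Dsp, for the desmosome protein desmoplakin (0.75 ± 0.087, adjusted p = 1.88e-05). These and the following adjusted p-values of list genes are from limma.

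At day 4, 11 epithelial and junction genes were higher in red and 2 lower, with a median of 0.25 beside 0.0039 over all probes, of which 7.97% were called higher and 9.45% lower. Among the higher ones, Krt18, a keratin gene, was at 1.33 ± 0.11 (adjusted p = 5.17e-07) and Krt8 at 1.10 ± 0.11 (adjusted p = 3.76e-06), and Cldn3 (-0.38 ± 0.11, adjusted p = 0.0223) and the laminin chain gene Lamb1 (-0.33 ± 0.10, adjusted p = 0.0406) were lower. The 2 other Lamb1 probes were at -0.015 and -0.0090 (adjusted p = 0.949 and 0.965). Extraembryonic endoderm markers, of which 3 of 9 were measured, moved in part with these genes: Ttr was at 1.61 ± 0.12 (adjusted p = 2.35e-07), Dab2 at 0.86 ± 0.087 (adjusted p = 4.97e-06) and Gata4 at -0.29 ± 0.11 (adjusted p = 0.0896). Other Dab2 probes were at 0.84 ± 0.087 (adjusted p = 6.97e-06) and -0.026 ± 0.088 (adjusted p = 0.872). At day 3 Gata4 was at 2.01 ± 0.11 (adjusted p = 1.28e-08), and its second probe was at 0.23 ± 0.086 (adjusted p = 0.0665). The summed level of the 3 endoderm markers at day 4 was 2474 to 3438 in red and 2191 to 2862 in green, and their part in the result was not tested. From day 3 to day 4 the ratio rose for 8 of the 23 and fell for 2, with Cldn6 changing most (1.47 ± 0.12, adjusted p = 1.22e-06). Of all probes 6.58% were called for that difference, in either direction. Cldn6, Cldn3 and Spint1, like Epcam, were lower in red at day 3 and had a larger ratio at day 4 than at day 3.

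Mesenchymal and transition genes were mixed at both later days. Of 45 listed genes besides the 4, 19 were measured. At day 2 only Col1a2, a collagen chain gene, passed (0.63 ± 0.11, adjusted p = 0.00291), with its second probe at 0.35 ± 0.10 (adjusted p = 0.0819). Col1a2 is also 1 of the fibroblast markers above. Of all probes 3.30% passed that day. At day 3, 5 were higher and 3 lower, with a median of 0.023. Over all probes the median was 0.0040, with 9.15% called higher and 11% lower. The calcium-binding protein gene S100a6 (0.67 ± 0.094, adjusted p = 1.38e-04) and the galectin gene Lgals1 (0.54 ± 0.10, adjusted p = 0.00181) were the highest, followed by Zeb1, a repressor of Cdh1 (0.45 ± 0.13, adjusted p = 0.0237), whose probe reached the signal-to-noise limit on 0 of 3 arrays in either channel. The lower ones were the neural filament gene Nes (-0.56 ± 0.11, adjusted p = 0.00170), the Cdh1 repressor Snai2 (-0.40 ± 0.10, adjusted p = 0.0138) and the actin-binding protein gene Cald1 (-0.36 ± 0.098, adjusted p = 0.0182). A second Snai2 probe was at 0.08 ± 0.11 that day (adjusted p = 0.613) and at 0.14 ± 0.11 at day 4 (adjusted p = 0.430).

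At day 4, 5 mesenchymal and transition genes were again higher and 3 lower, with a median of 0.19. Over all probes the median was 0.0039, with 7.97% called higher and 9.45% lower. Lgals1 was highest at 1.30 ± 0.10 or 2.46-fold (adjusted p = 4.97e-07), before S100a6 (0.49 ± 0.094, adjusted p = 0.00187) and the collagen gene Col5a1 (0.40 ± 0.095, adjusted p = 0.00847). Nes (-0.96 ± 0.11, adjusted p = 1.06e-05), Snai2 (-0.34 ± 0.10, adjusted p = 0.0315) and the transcription factor gene Tcf4 (-0.29 ± 0.091, adjusted p = 0.0409) were lower.

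**Figure D4:**
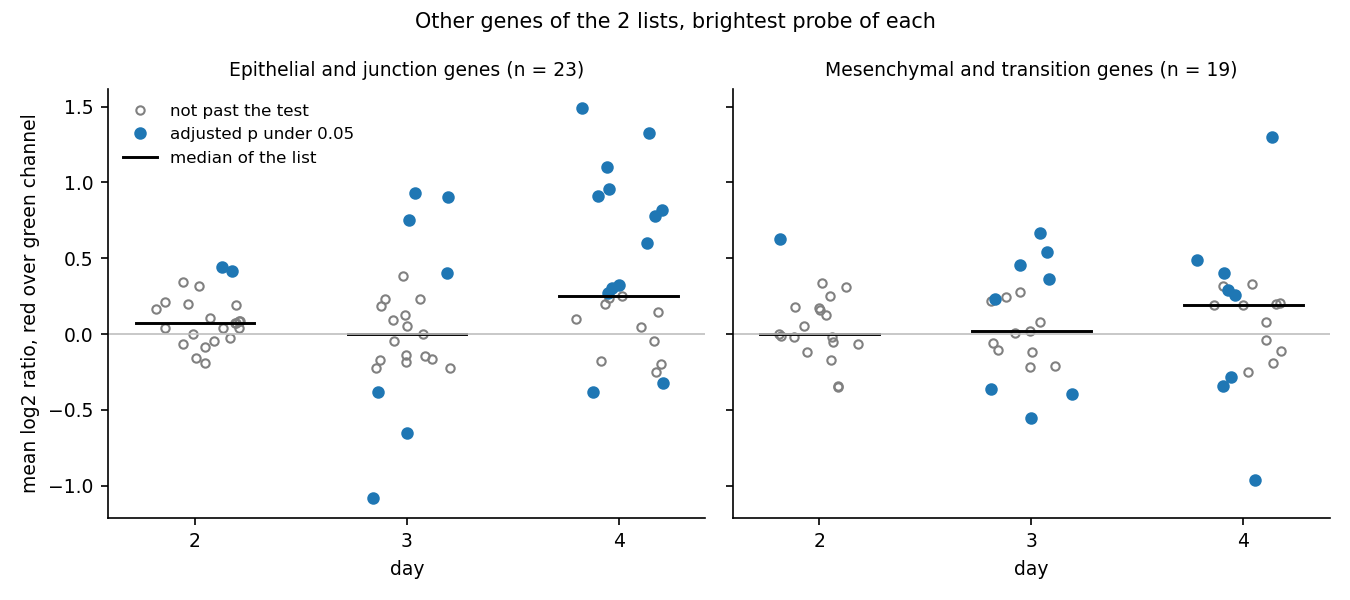
Mean log2 ratio of red over green for the other genes of the epithelial and junction list (23) and the mesenchymal and transition list (19) at each day, with the list median as a black line and called genes filled. At day 4 the epithelial and junction list has 11 genes called higher and 2 lower, and the other list 5 and 3.

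Among 9 other cadherin, protocadherin and catenin genes measured of 22 listed, the protocadherin gene Pcdh7 was called the same way as Cdh2 at each day. Its log2 ratio was 1.23 ± 0.13 at day 3 (adjusted p = 1.01e-05) and -0.54 ± 0.13 at day 4 (adjusted p = 0.0108), and a second probe was at 0.39 ± 0.12 (adjusted p = 0.0282) and -0.21 ± 0.12 (adjusted p = 0.236). Pcdh18, also a protocadherin gene, was higher at day 3 (0.57 ± 0.14, adjusted p = 0.0111) with signal on 1 of 3 arrays in each channel. The alpha-catenin gene Ctnna1, whose product ties cadherins to actin, was higher at day 4 by its brightest probe (0.27 ± 0.084, adjusted p = 0.0353), while its 2 other probes were at -0.037 and -0.18 (adjusted p = 0.844 and 0.372). The beta-catenin gene Ctnnb1 was at -0.23 ± 0.085 at day 3 (adjusted p = 0.0730). Of the 9 genes, 2 were called higher at day 3, where 9.15% of all probes were. At day 4, 1 was called higher and 1 lower, where 7.97% and 9.45% of all probes were.

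Of 15 other intermediate filament genes, 6 were measured. Krt8 passed at day 2, Krt8 and Krt19 were higher and Nes lower at day 3, and Krt18, Krt8, Krt19 and the lamin gene Lmna (0.37 ± 0.10, adjusted p = 0.0223) were higher and Nes lower at day 4. Of all probes 3.30, 20.1 and 17.4% passed at days 2, 3 and 4.

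Genes whose ratios ran most like those of the 4 were ranked by Pearson's r over the 9 arrays, among about 4510 probes with a symbol and signal, as a description of these arrays. Among those most like Cdh2 were Il17ra (r = 0.976), Usp3 (0.975), Greb1 (0.973) and Slco1b2 (0.972). Of these 4, Slco1b2 and Greb1 had the largest ratios at day 3, 1.06 and 0.92 log2, against 2.09 for Cdh2. Most like Epcam were Acsl4 (0.986), Tmem254a (0.979), Prxl2a (0.977), Stk17b (0.974) and Sft2d2 (0.969). Most like Vim were Ccdc90b (0.971), Sh3glb1 (0.967), Cited1 (0.967), Cnbp (0.966) and Ubfd1 (0.966), and Cited1 had larger ratios than Vim, 1.09 at day 3 and 1.41 at day 4. Cdh1 was not ranked, since its probes gave no signal.

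Under other settings of the processing, the day 3 ratio of Cdh2 ran from 1.27 to 2.56 log2, that of Epcam from -0.68 to -0.55 and that of Vim from 0.43 to 0.69. The lowest Cdh2 value is the mean of both probes.

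**Figure D5:**
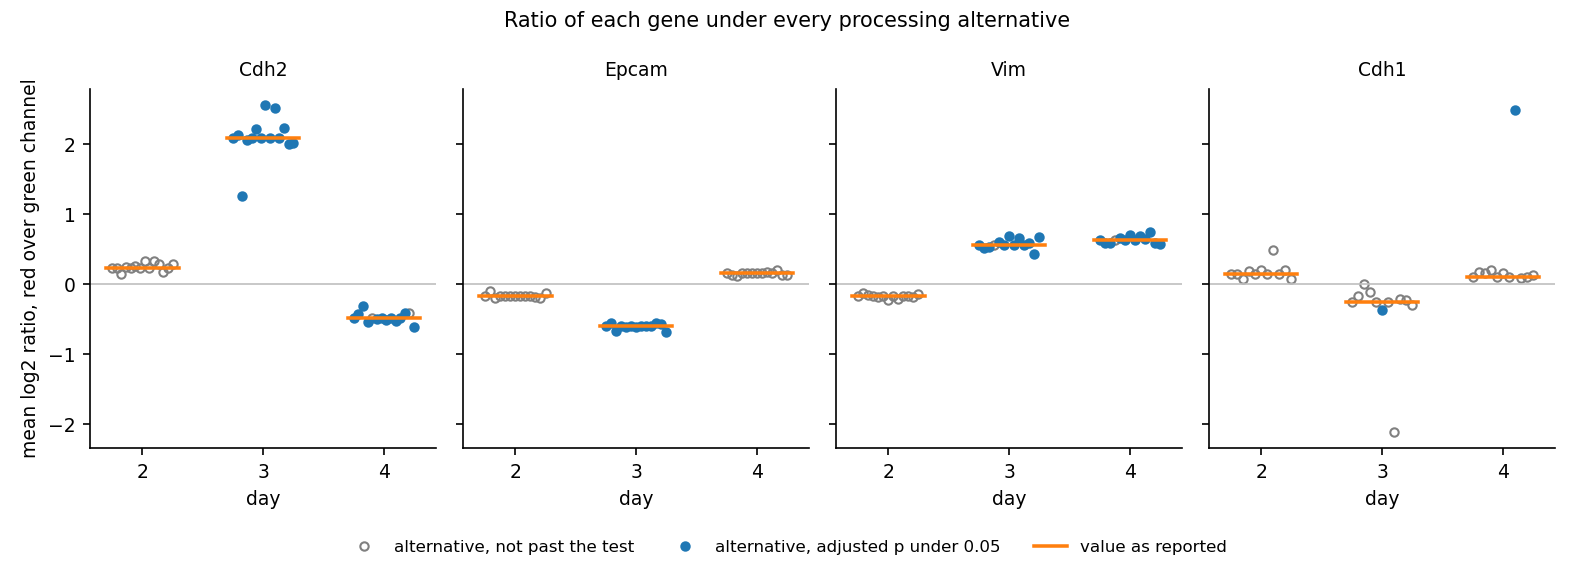
Mean log2 ratio of red over green for the 4 genes at each day under every processing alternative, filled where it passed an adjusted p of 0.05, with the reported value as an orange line. Cdh2 and Epcam pass at day 3 in every alternative run, and Cdh1 runs from -2.10 to 0.0048 at day 3.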

How the data were processed

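The 18 samples were read on 9 spotted 2-colour cDNA arrays after 1 round of linear RNA amplification, per the labels' protocols. Per the file headers, the tables deposited for each day give the background-subtracted intensity of each of 17327 spots in both channels, not normalized, a score per spot (the signal-to-noise ratio) and a flag. They also give the authors' ratio (fold) of the scaled red over the scaled green value and a p-value from an analysis of variance, per the file headers. Each DOX column of the value table over its control column equalled the deposited red over green fold within 1e-06.

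With limma 3.58.1 in R 4.3.3, spots with a flag of -75 or less were dropped, normexp with an offset of 50 modelled the background on all spots, and loess (span 0.3) normalized ratios within each array, control spots at weight 0. Each day's ratio and the differences between days came from a fit of the 9 log2 ratios on day (6 residual degrees of freedom), so the array is the block. Deviations of the red and green channels of an array from their group means correlated at 0.80 to 0.91 on all 9 arrays. Levels are log2 values of 1 channel after loess and Aquantile, tested over the 9 samples of that channel. All tests were two-sided, with Benjamini-Hochberg adjustment over all gene probes. A gene was represented by its brightest probe.

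Of 15247 gene probes, 9310 carried a symbol in the array files: 4036 current, 3918 updated through the RefSeq gene table (GRCm38.p6) and 1356 as in the file. The members and lists were chosen with earlier results of these data known. Named list genes are the 3 largest each way past the test, and the 5 genes most like each of the 4 are given; 2 genes that met these rules are not reported here. Ctnnb1, Lmna, further probes of a gene and the day 3 values of Gata4 fall outside this rule and were chosen after their values were seen. The number of arrays limits the precision.

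On data simulated from these arrays, with 67, 67 and 66 of 15247 probes changed by 1.5, 2 and 3-fold in red at day 3, the ratio at day 3 recovered 85.1, 97.0 and 100% of them, with 6.00% of calls false. For red day 3 minus day 2, tested on 15246 probes, the shares were 0, 25.4 and 54.5%, with 5.36% of calls false. The folds were set after the background step, so its shrinking of folds at dim spots is not included. Far fewer probes were changed than the 20.1% called at day 3 in the real arrays. These shares therefore hold for the simulated setting only. Alternatives covered background, normalization, signal filters, variance moderation, replicates left out, blocks, probe choice and the deposited scaled values.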

Additional observations from a re-analysis of the deposited data

Results flagged for a closer look

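For 3 of the 4 genes the red over green ratio differed between days by a test of the difference itself (limma, adjusted p over all gene probes). For Cdh2 the log2 ratio was 1.85 larger at day 3 than at day 2 (adjusted p = 8.63e-06), fell by 2.57 from day 3 to day 4 (adjusted p = 3.58e-08) and was -0.71 at day 4 relative to day 2 (adjusted p = 0.00674). For Epcam it was -0.44 at day 3 relative to day 2 (adjusted p = 0.0472) and rose by 0.76 from day 3 to day 4 (adjusted p = 3.95e-04). For Vim it was 0.73 larger at day 3 (adjusted p = 0.00770) and 0.80 larger at day 4 (adjusted p = 0.00154) than at day 2. The 3 comparisons share arrays and are not independent. Groups of 3 samples were too small for a check of single outlying samples.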

How the results depend on the processing

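Of 502 values for single genes under an alternative, 449 kept their direction and side of the threshold, 47 lost the call, 5 gained one and 1 reversed, and of 129 counts of called probes 99 stayed within 1.5 times. The day 3 ratios of Cdh2 and Epcam passed in all 14 and 13 alternatives run. The array as the block mattered most: with no replicate block 2 probes passed at day 3, 0 at day 4, and 0, 1 and 0 for day 3 minus day 2, day 4 minus day 3 and day 4 minus day 2, and the calls of Vim at day 3 and day 4 (log2 0.57 and 0.64, limma, adjusted p = 0.909 and 0.964) and of Cdh2 at day 4 (-0.48) were lost. Calls fell over the whole array in that setting, to 0.984% of all probes at day 3 and 1.06% at day 4. For the 3 differences between days, in the same order, the shares were 0.0131, 0.269 and 0.19%. Replicate numbers were not used to pair the samples of a channel across days. Correlations of their deviations ran from -0.32 to 0.45, with replicate 1 reaching 0.45 in red and 0.43 in green, so such a pairing is not excluded. The block by replicate number lost no count of the time courses beyond 1.5 times. The 5 probes called at day 3 became 3 with probes above the median intensity, with spots under the signal-to-noise limit left out, with the deposited scaled values and with only the 3 arrays of the day. Of all probes tested, 27.7, 26.5, 21.1 and 12.6% passed in these 4 settings. With 1 replicate left out, 3 to 5 probes passed at day 3, 1 to 2 at day 4, 1 to 2 for day 3 minus day 2, 1 to 2 for day 4 minus day 2, 0 to 1 for red day 3 minus day 2, 1 to 2 for red day 4 minus day 2, 0 to 1 for green day 4 minus day 3 and 1 for green day 4 minus day 2, and the Cdh2 ratio at day 4 ran from -0.61 to -0.41. Of all probes, 7.75 to 15.4% then passed at day 3 and 7.66 to 14.9% at day 4. For day 3 minus day 2 it was 0.531 to 1.75%, and for day 4 minus day 2 2.34 to 4.84%. In red these shares were 0 to 0.256% and 1.58 to 3.86%. In green they were 0.144 to 1.21% for day 4 minus day 3 and 1.22 to 3.55% for day 4 minus day 2. Without normalization between arrays the counts were 0 for red day 3 minus day 2 and 1 for both green comparisons with day 4, and with probes above the median intensity 1 passed for green day 4 minus day 2. The shares of all probes were 0.564% for that red comparison and 1.42 and 4.68% for green day 4 minus day 3 and day 4 minus day 2. Among probes above the median intensity 6.42% passed for green day 4 minus day 2.

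Cdh1 at day 3 was -2.10 with plain background subtraction, -0.11 with median centring, -0.16 with loess per print block, -0.24 with an intensity trend, with no replicate block or with only the arrays of the day, -0.30 to -0.21 with 1 replicate left out, and none of these passed. It reversed to 0.0048 as the mean of both probes, and at day 4 plain subtraction gave 2.49 (limma, adjusted p = 0.0441). Both channels are at background there. For the other changes the cause was not tested.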
